A study of Mus musculus with 9 samples.

Results

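Knockdown of Dppa2 was compared with control siRNA in 6 of the 9 RNA-seq libraries of the series, chosen by the siRNA named in the title of each library, with 3 libraries from cells given control siRNA and 3 from cells given Dppa2 siRNA. Both groups were E14 mouse embryonic stem cells (ESCs) of a 129/Ola background, grown without feeder cells in serum and LIF, the cytokine that keeps ESCs self-renewing. The paper describes its Dppa2 and Dppa4 knockdowns in ESCs that carry MERVL::tdTomato and Zscan4c::eGFP fluorescent reporters. The cells were transfected at 0 h and again at 48 h, and RNA was collected at 96 h (4 d). The groups therefore shared the line, the medium, and the transfections and differed only in the siRNA, which lowers a transcript for a limited time and does not remove the gene. The other 3 libraries, from Dppa4 siRNA cells, entered the fit to help estimate the spread between libraries. They also counted in the filter that chose the genes to test, and were set against Dppa2 siRNA once, at the end. Libraries carry the letters 3A, 3B, and 3C in each group. The labels do not say whether the letters stand for separate cultures. The study's legends call replicates of its siRNA experiments biological without saying how they were kept apart, so p-values measure the spread between these libraries, part of which may be technical.

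Dppa2 is a small nuclear protein with a SAP domain, a fold that binds DNA, and it acts with its partner Dppa4, encoded by the neighbouring gene. Both are present in oocytes, early embryos, and pluripotent cells. A culture of mouse ESCs holds a rare population that switches on genes of zygotic genome activation (ZGA), the first burst of transcription from the embryo's own genome; these are called 2C-like cells. Many ZGA genes, such as the Zscan4, Tcstv, and Usp17-like families, are young multicopy genes in clusters, and reads from a 2C-like minority are what a bulk library shows of them. In bulk RNA, fewer cells of a type and less RNA per cell cannot be told apart. Another group of genes that ESCs hold near silence is that of the germ line, whose promoters are rich in CpG and carry DNA methylation in most somatic cells. The comparison asks which of these programmes, and which others, depend on Dppa2.

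The log2 values of Dppa2 itself were 7.26, 7.16, and 6.94 in control siRNA libraries 3A, 3B, and 3C, and 3.36, 3.86, and 3.68 in those of Dppa2 siRNA, so the groups lay far apart and the labels fit the transcript. The markers of ESCs were high in both groups. Pou5f1, the core pluripotency factor Oct4, lay between 10.10 and 10.26 in control libraries and between 10.22 and 10.41 in Dppa2 siRNA libraries. Nanog lay between 7.78 and 8.53 and between 7.92 and 8.23. The groups overlapped for both genes, and limma gave log2 changes of 0.09 for Pou5f1 (SE 0.09, adjusted p = 0.781) and -0.22 for Nanog (SE 0.19, adjusted p = 0.714). Of 9 fibroblast markers, which feeder cells would carry, 3 reached the level needed for a test, and Postn and Lum stood at the lowest value in every library. The summed linear level of the 9 was 8.84 to 10.45 with control siRNA and 10.64 to 12.65 with Dppa2 siRNA, and 1 of them, Pdgfrb, was raised by 1.08 (SE 0.16, adjusted p = 0.00718); its part in the other results was not tested.

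The estimated depth was 19.5 to 40.2 Mreads on genes in control libraries and 16.8 to 25.5 Mreads in Dppa2 siRNA libraries. The deposited values had been matched between libraries over their whole distribution. At 10 to 30 reads this placed a gene 0.32 to 0.36 higher on the log2 scale in Dppa2 siRNA libraries than its reads would, against -0.18 to 0.04 in control libraries. On the deposited scale an increase of a weakly expressed gene is therefore larger, and a decrease smaller, than its reads alone would give. For several counts, the value after putting low genes back on the scale of reads is given beside it. That rescaling was chosen after the data had been seen. Counts given without it are on the deposited scale and may change with it. For a gene left without reads, the fold is a lower bound set by 3 reads in each library. Such bounds and all intervals cover counting error only.

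With Dppa2 siRNA some weakly expressed genes showed very large decreases, and the other genes that passed the test changed less. Of 14601 genes tested, limma called 502 (3.44%) at an adjusted p below 0.05, with 332 (2.27%) lowered and 170 (1.16%) raised. After the rescaling there were 456 lowered and 94 raised, and 331 of the 332 and 89 of the 170 remained past the threshold. With the 6 compared libraries alone, fitted to the same tested genes, 208 were lowered and 22 raised, of which 202 and 22 were among the first calls. A further criterion, a difference larger than that of genes of like expression, was met by 224 lowered genes (1.53%) and 55 raised genes (0.377%), called high-confidence below, 279 in all (1.91%). Increases were the less stable: without Dppa2 siRNA library 3C the raised genes numbered 25 and those of high confidence 13, and with the 6 libraries alone the latter numbered 12. All Dppa2 siRNA libraries lay below all control libraries for 1197 genes (8.2%) and above them for 1398 (9.57%). The median change over all tested genes was 0.02.

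The lowered genes fell into different sizes. A group of 117 genes was lowered by 3 or more on the log2 scale, and 51 of them had no reads left in any Dppa2 siRNA library. These 117 had a median log2 level of 0.61 with control siRNA, where the median tested gene stood at 3.69, and 112 of them passed with the 6 libraries alone. The other 215 lowered genes had a median control level of 2.09 and a median change of -1.28. The raised genes were also weakly expressed, with a median control level of 0.77. Increases were smaller, with a median of 1.01, and 21 of the 170 reached 2 or more. On the linear scale the 117 genes made up 0.0794% to 0.0917% of summed expression in control libraries and 0.00286% to 0.00338% in Dppa2 siRNA libraries. The other lowered genes went from 0.318% to 0.336% of the sum down to 0.180% to 0.181%, and the raised genes from 0.179% to 0.216% up to 0.311% to 0.362%. These shares describe the genes that the test itself chose. The 117 include the siRNA target Dppa2, the only 1 of them with a control level of 6 or more. Dppa2 gave 5190, 8043, and 3354 of the 21080, 32019, and 17505 reads of the 117 genes in control libraries 3A, 3B, and 3C. In the Dppa2 siRNA libraries it gave 367, 401, and 299 of 547, 517, and 427. Dppa2 aside, the strongest responders were minor transcripts of the whole culture.

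**Figure D1:**
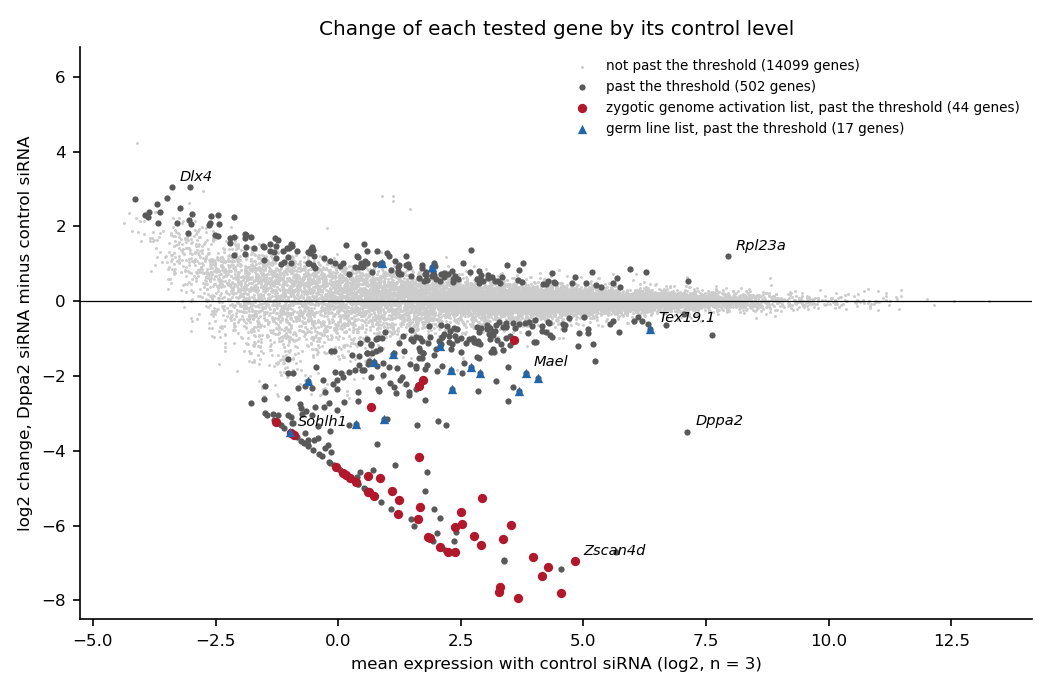
Change of each of 14601 tested genes (log2, Dppa2 siRNA minus control siRNA) against its mean log2 expression with control siRNA; genes past the adjusted p threshold are dark, and members of the ZGA list (44) and germ line list (17) past it are coloured. The lowest points follow a straight lower edge, set by genes with no reads left, and many of them are ZGA genes, while Dppa2 stands alone among well-expressed genes with a large decrease.

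Fewer genes were detected at all after Dppa2 siRNA. At a matched depth, 16442 to 16895 genes had a read in control libraries and 15778 to 15898 in Dppa2 siRNA libraries, with no overlap between the groups. Without matching for depth, there were 294 genes with reads in every control library and none in any Dppa2 siRNA library, and 6 genes with the opposite pattern. When at least 10 reads were asked for in every library of the group that had them, 53 genes were present only with control siRNA and none only with Dppa2 siRNA. This count was not matched for depth either. Depth reached 40.2 Mreads in control libraries and 25.5 Mreads in Dppa2 siRNA libraries, and its part in these counts was not tested.

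**Figure D2:**
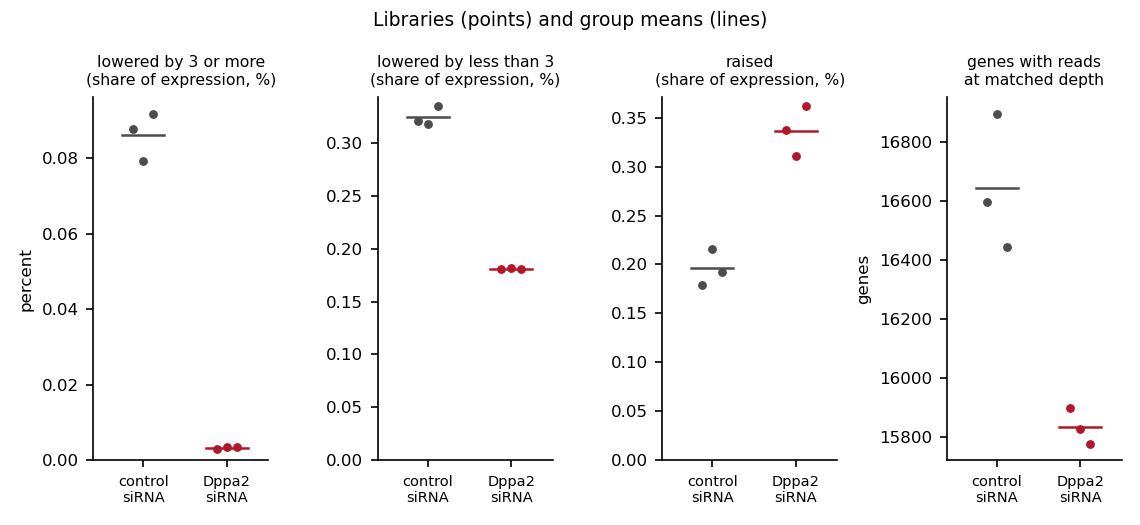
Share of summed linear expression (percent) from the 117 genes lowered by 3 or more, the 215 other lowered genes, and the 170 raised genes, and the number of genes with reads at matched depth (axis not from 0), for each library (points) with group means (lines). The groups do not overlap in any panel. The first share, which includes Dppa2 itself, falls from at least 0.0794% to at most 0.00338%.

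The ZGA genes gave the largest response. Of 53 tested members of the lists for this programme, 44 were lowered and none raised, where 2.27% of all tested genes were lowered. Their median change was -5.11, or -4.67 with the genes that had no reads placed at their floor. The count stayed between 43 and 44 with any of the 9 libraries left out and was 43 with the 6 libraries alone and 45 after rescaling. Every family had lowered members. All 5 tested Zscan4 genes and 4 of 5 tested genes of the Tcstv and Trim43 families were lowered. So were 5 of 6 tested Usp17-like deubiquitinases and all 7 tested genes of the Eif1a-like list. Among these 7, Gm4301 on chromosome 10 is a predicted gene whose likeness to Eif1a was not checked. All 3 tested Tdpoz genes, 9 of 13 tested Prame-like genes, and 11 of 14 other tested 2C markers were lowered too. Many members were measured but not tested. Measured members numbered 17 in the Eif1a-like list, 9 in Tdpoz, 38 in Prame-like, and 12 in Tcstv and Trim43. High values with control siRNA alone could bring a gene into the test, so these shares describe tested genes only.

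Zscan4c, a zinc finger and SCAN domain protein that protects telomeres in ESCs, had 488, 899, and 466 reads in control libraries 3A, 3B, and 3C and 2, 1, and 8 reads in Dppa2 siRNA libraries. Its log2 values were 3.85, 4.00, and 4.09 against -3.59, -3.84, and -1.13, a change of -6.83 (SE 0.66, adjusted p = 0.000614). Zscan4d fell from 5.05, 4.81, and 4.63 to -1.40, -3.21, and -1.73 (log2 change -6.94, SE 0.61, adjusted p = 0.000356). No control library overlapped a Dppa2 siRNA library for either gene, and library 3C kept the most Zscan4c reads after knockdown. Zscan4f had 233, 293, and 72 control reads and none after Dppa2 siRNA, and was at least 45.9-fold lower. The Zscan4 copies are close to identical, and 49.4% to 95.2% of the 50-base stretches of their transcripts occur in another annotated gene, so the family is better read as a whole than gene by gene.

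Losses of like depth were seen in the other families. Dub1, a Usp17-like deubiquitinase, had 215, 334, and 91 control reads and 1, 0, and 0 after Dppa2 siRNA, or 0.212% of the control reads scaled to depth (exact 95% interval 0.00535% to 1.18%). Gm5662, in the cluster of Eif1a-like genes that resemble a translation initiation factor, had 946, 922, and 111 control reads and 0, 1, and 0 after knockdown, or 0.0684% (exact 95% interval 0.00173% to 0.382%). AF067061, a gene of the Tcstv cluster, had 79, 169, and 167 control reads and none after knockdown, and was at least 35.7-fold lower. Gm12794, of the Prame-like genes with leucine-rich repeats, had 477, 458, and 205 control reads and none after knockdown, and was at least 92.7-fold lower. The control libraries differed among themselves in some of these genes: on the log2 scale library 3C was the lowest of the 3 for Gm5662 and the highest for AF067061.

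Members outside the clusters were lowered as well. Arg2, a mitochondrial arginase, had log2 values of 2.62, 2.76, and 3.40 with control siRNA and -1.94, -2.65, and -2.42 with Dppa2 siRNA (change -5.26, SE 0.28, adjusted p = 4.41e-05), and no stretch of its transcript was shared with another gene. Tmem92, a membrane protein, went from 3.20, 3.55, and 3.84 to -1.72, -2.65, and -2.95 (change -5.97, SE 0.37, adjusted p = 6.56e-05). The zinc finger gene Zfp352 had 87, 147, and 49 control reads and 1, 0, and 1 after knockdown, or 0.957% (exact 95% interval 0.115% to 3.49%). The LIM homeobox gene Lmx1a, better known in the midbrain, fell from 1.48, 1.45, and 1.99 to -1.94, -2.65, and -2.95 (change -4.15, SE 0.37, adjusted p = 0.000358). Abcb5, a membrane transporter, lost all of its 59, 73, and 25 control reads and was at least 12.3-fold lower. In each of these genes all Dppa2 siRNA libraries lay below all control libraries.

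**Figure D3:**
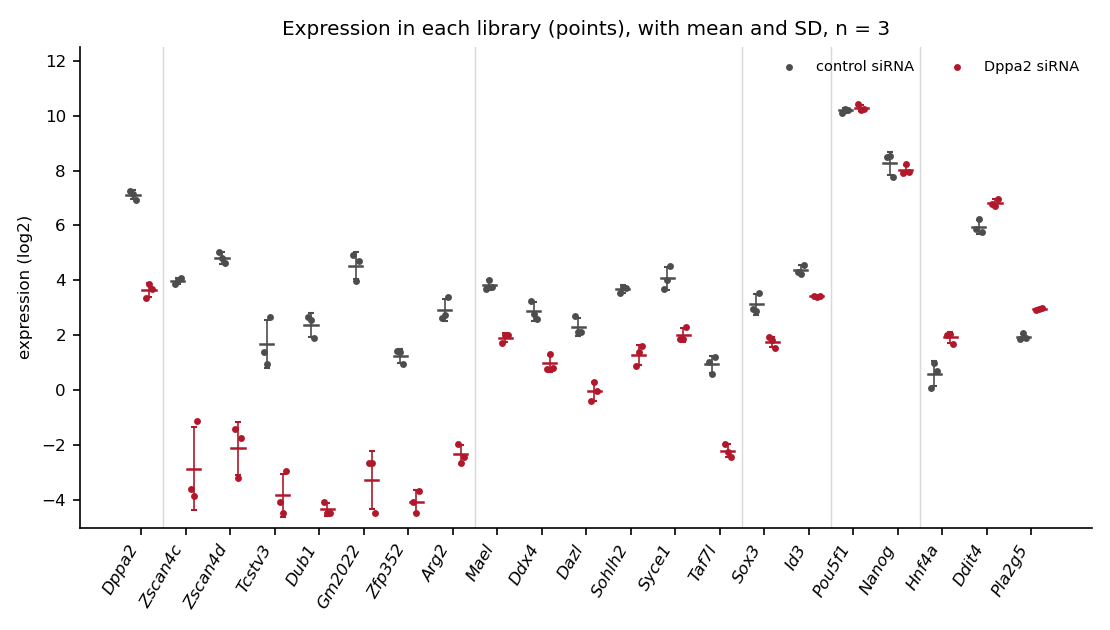
Log2 expression in each control siRNA library (grey) and Dppa2 siRNA library (red), points for libraries 3A, 3B, and 3C from left to right, with mean and SD (n = 3), for Dppa2, 7 ZGA genes, 6 germ line genes, Sox3 and Id3, Pou5f1 and Nanog, and 3 raised genes. ZGA genes drop to low values. Germ line genes settle at an intermediate level except Taf7l, which ends near the level of the ZGA gene Arg2. Pou5f1 and Nanog overlap between groups.

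The 9 members that did not pass the test were of different kinds. Pramef8 stood at 4.68, 4.70, and 4.44 with control siRNA and 4.47, 4.86, and 4.63 with Dppa2 siRNA (change 0.05, SE 0.13, adjusted p = 0.954), and Pramef12 gave 0.17 (SE 0.12, adjusted p = 0.623). The groups overlapped for both, although these genes lie on chromosome 4 as do the lowered Prame-like genes other than Pramel6 and Pramel7. Pramel6 and Pramel7, which lie on chromosome 2, were lowered with changes of -2.26 (SE 0.24, adjusted p = 0.00107) and -2.10 (SE 0.26, adjusted p = 0.00288), and kept 9 to 24 reads per library. Calcoco2, an autophagy receptor, was at 6.10, 6.41, and 6.62 against 6.10, 5.86, and 6.13 (change -0.35, SE 0.14, adjusted p = 0.256), and the groups overlapped. Trim43c had a change of -2.48 but did not pass (SE 0.66, adjusted p = 0.088), on 9 to 30 control reads.

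Germ line genes formed the other group with many decreases. Of 100 tested members, 15 were lowered and 2 raised, against 2.27% and 1.16% of all tested genes, and 12 of the 17 were high-confidence. The median of the 100 was -0.13, and 83 of them did not pass in either direction. The lowered count was 10 with the 6 libraries alone and 10 to 15 with 1 library left out, lowest without control siRNA library 3B, and 18 after rescaling. Most of the lowered genes were still detected in every Dppa2 siRNA library, as the values below show.

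In the piRNA pathway, which silences transposons in germ cells, 6 of 24 tested genes were lowered. Mael, a factor of the piRNA granule, had 436, 917, and 368 reads with control siRNA and 103, 102, and 86 with Dppa2 siRNA (log2 change -1.91, SE 0.14, adjusted p = 0.000156). Ddx4, the germ cell RNA helicase Vasa, went from 3.27, 2.79, and 2.59 to 0.79, 1.32, and 0.82 (change -1.91, SE 0.21, adjusted p = 0.00156). Mov10l1, a helicase needed to make piRNAs, went from 2.80, 2.63, and 2.71 to 0.95, 1.13, and 0.82 (change -1.75, SE 0.15, adjusted p = 0.000329), and Fkbp6, a co-chaperone of the pathway, changed by -1.83 (SE 0.23, adjusted p = 0.00281). Groups were apart in all of these, and the calls held in each of the 18 alternative fits. The Piwi proteins themselves did not pass, with Piwil2 at -0.60 (SE 0.16, adjusted p = 0.0919) and Piwil4 at -0.47 (SE 0.19, adjusted p = 0.262). Tdrd1, a tudor scaffold, was lowered by a change of -1.40 (SE 0.23, adjusted p = 0.0112, and 0.0525 without Dppa2 siRNA library 3A), and Tex19.1, by one of -0.73 (SE 0.16, adjusted p = 0.0469), a call that ended with any of 7 libraries left out (adjusted p = 0.161 without Dppa2 siRNA library 3C).

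Among regulators of germ cell transcription and RNA, 4 of 27 were lowered. Sohlh2, a helix-loop-helix factor of early germ cells, had 389, 770, and 365 reads with control siRNA and 54, 65, and 63 with Dppa2 siRNA (log2 change -2.39, SE 0.20, adjusted p = 0.00024). Its partner Sohlh1 had 12, 27, and 23 control reads and none after knockdown, and was at least 5.22-fold lower. Dazl, an RNA-binding protein of germ cells, went from 2.70, 2.13, and 2.13 to -0.41, 0.31, and -0.03 (change -2.36, SE 0.25, adjusted p = 0.00107). Taf7l, a germ cell form of a TFIID subunit encoded on chromosome X, went from 1.01, 0.59, and 1.21 to -1.94, -2.25, and -2.42 (change -3.14, SE 0.28, adjusted p = 0.000358). By contrast Prdm14 at -0.40 (SE 0.11, adjusted p = 0.109), Prdm1 at -0.26 (SE 0.13, adjusted p = 0.372), and Tfap2c at 0.06 (SE 0.10, adjusted p = 0.902), which specify primordial germ cells, did not pass.

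Of 12 tested genes in the synaptonemal complex list, the structure that joins homologous chromosomes, 3 were lowered (Fkbp6, which is also in the piRNA list, Syce1, and Sycp1) and 1 raised. Syce1, a central element protein, went from 3.68, 4.01, and 4.54 to 1.88, 1.86, and 2.29 (change -2.06, SE 0.21, adjusted p = 0.000937). Sycp1, the transverse filament, had 58, 59, and 31 control reads and 0, 4, and 4 after knockdown (change -3.29, SE 0.61, adjusted p = 0.0228), a call that ended without control siRNA library 3A (adjusted p = 0.0752) or 3B. Sycp3, the lateral element protein of the same structure, changed by 0.35 (SE 0.12, adjusted p = 0.183) and did not pass. Hormad2 was raised by 1.01 (SE 0.21, adjusted p = 0.0367), and leaving out any of 7 libraries ended that call (adjusted p = 0.154 without Dppa2 siRNA library 3C). In meiotic cohesin and recombination, Tex11, on chromosome X, changed by -1.20 (SE 0.20, adjusted p = 0.0136, and 0.0599 without control siRNA library 3B) and Spata22 by -1.63 (SE 0.33, adjusted p = 0.0342, lost with any of 7 libraries left out, at 0.112 without Dppa2 siRNA library 3A). The recombinase gene Dmc1 and the cohesin gene Stag3 did not pass, at 0.32 (SE 0.13, adjusted p = 0.273) and 0.36 (SE 0.14, adjusted p = 0.23). Of 15 tested oocyte genes 1 was lowered and 1 raised. Nlrp4c changed by -2.13 (SE 0.43, adjusted p = 0.0322), a call lost with any of 8 libraries left out (adjusted p = 0.095 without control siRNA library 3A). Nlrp4f was raised by 0.91 (SE 0.14, adjusted p = 0.00862), with log2 values of 1.92, 1.81, and 2.03 against 2.88, 2.95, and 2.65.

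RefSeq windows on GRCm38.p6, from 250 bases before to 50 after the start, were matched for 14 of the 15 lowered germ line genes. They had a median CpG count of 20 and a median ratio of observed to expected CpG of 0.756, where the median over all 32851 windows of the RefSeq table was 7 and 0.384. The E-box CACGTG, a palindrome that reads the same on both strands and is bound by helix-loop-helix proteins, was present in 8 of the 14 windows (57.1%) and in 7.15% of all windows. These 8 were Mael, Sohlh1, Ddx4, Taf7l, Tdrd1, Fkbp6, Mov10l1, and Sycp1. The windows of Sohlh2, Dazl, Syce1, Spata22, Tex19.1, and Nlrp4c, which were lowered too, did not hold it. The matched windows are the first listed start of each gene, while the 32851 also hold other starts and untested genes. The 2 shares are therefore not like for like. Another motif was scored as well and is not reported here. A match describes the letters and is not a site of binding. Only 30 of the 44 lowered ZGA genes (68.2%) and 60 of the 83 germ line genes that did not pass (72.3%) could be matched, under the 80% set for comparing sets. Of those 60 windows 13 (21.7%) held CACGTG, and their median CpG count was 16.5 with a ratio of 0.6, so windows of genes that did not pass held the motif and many CpG too. The 250 bases before the start of 4 germ line genes and 2 ZGA genes are shown to let their composition be compared, from RefSeq on GRCm38.p6, 5′ to 3′, with CACGTG in capitals:
Mael (chr1:166238745-166238994, minus strand): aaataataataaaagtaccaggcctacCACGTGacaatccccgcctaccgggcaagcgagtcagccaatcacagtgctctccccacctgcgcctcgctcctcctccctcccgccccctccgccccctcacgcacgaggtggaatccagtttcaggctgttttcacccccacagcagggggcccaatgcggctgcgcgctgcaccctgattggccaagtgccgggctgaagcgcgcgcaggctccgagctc
Sohlh1 (chr2:25847249-25847498, minus strand): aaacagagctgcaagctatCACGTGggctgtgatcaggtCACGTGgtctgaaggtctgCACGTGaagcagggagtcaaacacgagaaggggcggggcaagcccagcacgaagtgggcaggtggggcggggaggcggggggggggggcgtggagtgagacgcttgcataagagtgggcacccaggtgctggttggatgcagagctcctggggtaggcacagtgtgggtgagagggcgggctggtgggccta
Ddx4 (chr13:112652311-112652560, minus strand): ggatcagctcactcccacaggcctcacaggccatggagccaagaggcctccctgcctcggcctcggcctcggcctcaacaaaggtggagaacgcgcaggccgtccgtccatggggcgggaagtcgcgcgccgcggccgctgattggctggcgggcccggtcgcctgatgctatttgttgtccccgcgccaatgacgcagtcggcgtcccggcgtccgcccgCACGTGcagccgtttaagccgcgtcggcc
Taf7l (chrX:134476491-134476740, minus strand): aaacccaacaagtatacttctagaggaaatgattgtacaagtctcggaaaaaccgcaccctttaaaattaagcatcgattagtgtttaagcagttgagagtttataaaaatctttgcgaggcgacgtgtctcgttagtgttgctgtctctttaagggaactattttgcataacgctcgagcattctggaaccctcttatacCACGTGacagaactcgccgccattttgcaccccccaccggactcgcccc
Zscan4c (chr7:11005495-11005744, plus strand): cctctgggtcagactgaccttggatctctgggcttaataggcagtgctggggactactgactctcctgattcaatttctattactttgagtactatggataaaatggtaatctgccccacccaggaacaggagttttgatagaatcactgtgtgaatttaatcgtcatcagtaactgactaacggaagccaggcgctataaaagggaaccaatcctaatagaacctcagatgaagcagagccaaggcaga
Zfp352 (chr4:90218570-90218819, plus strand): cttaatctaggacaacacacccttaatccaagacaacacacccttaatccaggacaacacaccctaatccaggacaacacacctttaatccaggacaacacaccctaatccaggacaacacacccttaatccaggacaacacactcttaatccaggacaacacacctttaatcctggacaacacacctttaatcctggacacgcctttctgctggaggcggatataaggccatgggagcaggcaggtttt

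The Sohlh1 stretch holds the E-box 3 times and those of Mael, Ddx4, and Taf7l hold it once. All germ line genes shown were among those with the motif, so the display does not stand for all lowered germ line genes. The 300-base windows of Zscan4c and Zfp352 hold no E-box and have 4 and 2 CpG, ratios of observed to expected of 0.24 and 0.14, against 24 CpG and 0.78 for Mael, 38 and 0.98 for Ddx4, 17 and 1.03 for Taf7l, and 14 and 0.52 for Sohlh1. Among lowered ZGA genes, Ddit4l had 14 CpG and a ratio of 0.45 and Lmx1a had 12 and 0.46, near the values of Sohlh1. The lowered germ line gene Nlrp4c had 7 CpG and a ratio of 0.35.

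None of 26 tested genes of core and naive pluripotency passed the test, and their median change was 0.04 with a range of -0.46 to 0.28. Of 87 tested chromatin regulators, among them DNA methyltransferases and TET enzymes, PRC1.6 repressors of germ line genes, and known repressors of the 2C-like state, none was lowered and 1 was raised. That gene, Phf19, a PRC2 cofactor, had log2 values of 3.34, 3.26, and 3.31 against 3.87, 3.71, and 3.77 (change 0.48, SE 0.10, adjusted p = 0.0305), and leaving out any of 7 libraries ended the call (adjusted p = 0.141 without Dppa2 siRNA library 3A). None of 70 tested genes for ribosomal proteins and cell division passed, with a median of 0.02; the list holds 40 ribosomal protein genes and not Rpl23a, which is described below. Of all tested genes, 3.44% were called. Dppa4 was at 7.02, 7.11, and 7.06 with control siRNA and 7.11, 7.07, and 7.17 with Dppa2 siRNA.

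**Figure D4:**
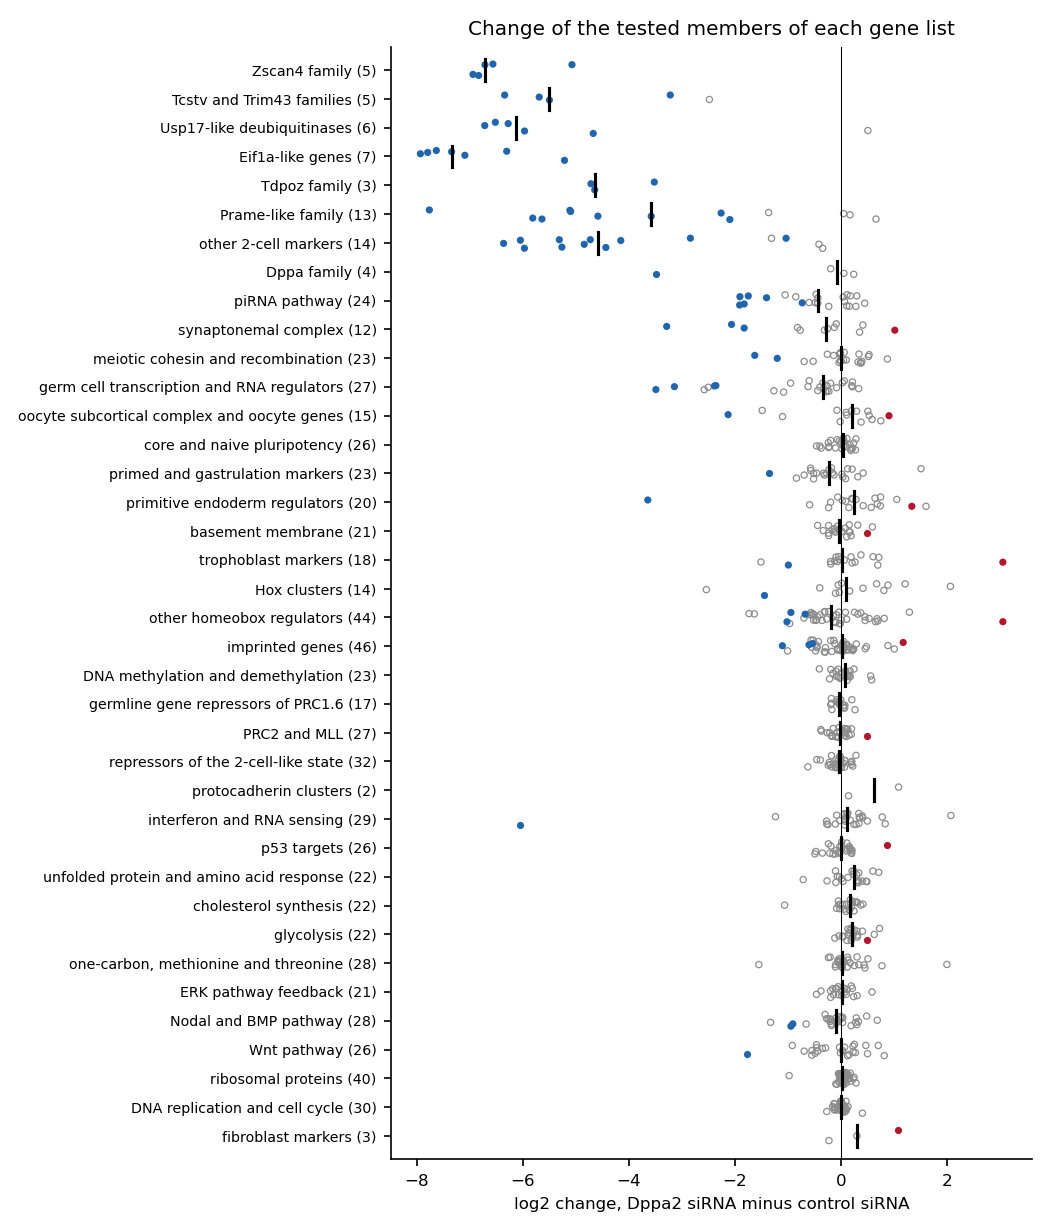
Log2 change of every tested member of 38 gene lists (one row per list, number tested in brackets), filled where past the adjusted p threshold (blue lowered, red raised) and open where not, with the list median as a bar; vertical spread of points is only for legibility. The first 7 lists, of ZGA families, have medians between -7.34 and -3.58, and all lists below the germ line have medians between -0.23 and 0.61.

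Some developmental regulators passed the test. Sox3, an early neural factor on chromosome X, went from 2.95, 2.87, and 3.55 to 1.92, 1.82, and 1.55 (change -1.36, SE 0.19, adjusted p = 0.00599), the only one of 23 primed and gastrulation markers to pass. Of 58 tested homeobox genes, 4 were lowered and 1 raised, against 2.27% and 1.16% of all tested genes, so the lowered share was above that background in the main fit. Pou4f1, a sensory neuron factor, changed by -0.95 (SE 0.15, adjusted p = 0.00859) with log2 values of 2.22, 1.96, and 2.20 against 1.23, 1.32, and 0.99, and did not pass with the 6 libraries alone. En1, of the midbrain, changed by -1.02 (SE 0.18, adjusted p = 0.0184), a call lost without control siRNA library 3A or Dppa2 siRNA libraries 3A or 3C (adjusted p = 0.0758 for the last). The homeobox counts were 1 lowered with the 6 libraries alone and 1 to 3 with 1 library left out (1 without control siRNA library 3A). After rescaling, 5 were lowered. Of 20 tested primitive endoderm regulators, Hnf4a, a liver and gut receptor, was raised, from 0.09, 0.98, and 0.71 to 2.02, 2.06, and 1.70 (change 1.33, SE 0.23, adjusted p = 0.0142, and 0.0672 without Dppa2 siRNA library 3A), and Apob, the lipoprotein of endoderm, had 33, 54, and 12 control reads and 1, 0, and 1 after knockdown, or 2.74% of control (exact 95% interval 0.327% to 10.1%; the call ended without any of 3 libraries, at adjusted p = 0.0715 without control siRNA library 3B). The trophoblast list, of 18 tested, had 1 lowered gene, Gata2, and 1 raised, Dlx4, and the Hox list, of 14 tested, had 1 lowered gene, Hoxd13. Gata2 lost its call with any of 5 libraries left out (adjusted p = 0.105 without Dppa2 siRNA library 3C) and Hoxd13 with any of 8 (adjusted p = 0.165 without the same library).

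Of 75 tested genes of the signalling lists, 3 were lowered and none raised, where 2.27% of all tested genes were lowered, so the share is near that background. Id3, an inhibitor of helix-loop-helix factors and a target of BMP, had log2 values of 4.30, 4.22, and 4.57 with control siRNA and 3.44, 3.39, and 3.43 with Dppa2 siRNA (change -0.94, SE 0.11, adjusted p = 0.00213). Its relative Id2 went from 4.37, 4.29, and 4.28 to 3.22, 3.76, and 3.23 (change -0.91, SE 0.15, adjusted p = 0.012), which was lost without Dppa2 siRNA library 3A or 3C (adjusted p = 0.0661 without 3C). Sp5, a Wnt target that lost its call without either of 2 libraries, had 68, 90, and 90 control reads and 15, 18, and 12 after knockdown (change -1.78, SE 0.31, adjusted p = 0.0159, and 0.0712 without Dppa2 siRNA library 3A). The group count was 1 with the 6 libraries alone. No gene of the ERK feedback list passed.

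Of 46 tested imprinted genes, 3 were lowered and 1 raised, against 2.27% and 1.16% of all tested genes, and their median was 0.02. With the 6 libraries alone 1 was lowered and none raised, and after rescaling 3 were lowered and none raised. The raised gene, Slc22a18, a transporter, changed by 1.17 (SE 0.26, adjusted p = 0.0484), and its call ended with any of 8 libraries left out (adjusted p = 0.192 without Dppa2 siRNA library 3C). Dlk1, a paternally expressed membrane ligand, was the firmest, with log2 values of 2.51, 2.70, and 2.59 against 1.37, 1.59, and 1.53 (change -1.11, SE 0.13, adjusted p = 0.00161), and it passed in each of the 18 alternative fits. Igf2, a growth factor, changed by -0.60 (SE 0.13, adjusted p = 0.0388) and Cdkn1c, a cell cycle inhibitor, by -0.54 (SE 0.11, adjusted p = 0.033). For each of the last 2 the call ended with any of 7 libraries left out, at adjusted p = 0.169 for Igf2 without Dppa2 siRNA library 3C and 0.138 for Cdkn1c without 3A.

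Few stress and metabolic genes passed the test. Of 76 tested genes for interferon and RNA sensing, p53 targets, and the unfolded protein and amino acid response, 1 was lowered and 1 raised, where 2.27% and 1.16% of all tested genes were. The lowered one, Sp110, a nuclear body protein, is also one of the 2C markers and had 144, 227, and 200 control reads against 2, 0, and 2 (change -6.05, SE 0.47, adjusted p = 0.000176); 54.2% of the stretches of its transcript occur in another gene. The raised one was Ddit4, an mTOR inhibitor of the stress response, at 5.87, 6.23, and 5.75 against 6.77, 6.72, and 6.97 (change 0.87, SE 0.14, adjusted p = 0.00898, and 0.052 without Dppa2 siRNA library 3C). Of 72 metabolic genes none was lowered and 1, Hk1, the hexokinase that starts glycolysis, was raised by 0.49 (SE 0.10, adjusted p = 0.0259), a call that ended with any of 6 libraries left out (adjusted p = 0.122 without Dppa2 siRNA library 3A). After rescaling, 1 metabolic gene was lowered and 2 were raised. The median of the 22 glycolysis genes was 0.20, and 6 of them lay above control in every library comparison, where 9.57% of all tested genes did.

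Only 73 of the 332 lowered and 10 of the 170 raised genes belong to any of the 39 lists, so most of the response lies outside them. Cacna1s, a calcium channel of skeletal muscle, had log2 values of 1.98, 1.58, and 1.73 with control siRNA and -3.09, -3.21, and -3.65 with Dppa2 siRNA (change -5.08, SE 0.32, adjusted p = 6.96e-05). Inpp4b, a lipid phosphatase, lost its 46, 65, and 38 control reads and was at least 12.2-fold lower, and Rdh1, a retinol dehydrogenase, lost all of its 58, 123, and 42 control reads. Mecom, a zinc finger factor of blood stem cells, went from 1.64, 1.48, and 2.30 to -3.59, -2.65, and -2.04 (change -4.57, SE 0.69, adjusted p = 0.00797). Cd3e, a T cell receptor subunit, had 71, 114, and 63 control reads and 9, 0, and 1 after knockdown (change -4.39, SE 0.67, adjusted p = 0.00809). Fam190a, Dcc, Pclo, Ptpro, Ankrd22, Epx, Trim52, and Ccl3 were also among the largest, with changes between -5.55 and -3.92, and Dmrtc1c2 among them shares all of its stretches with another gene.

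Increases outside the lists were smaller. Heatr8 had 8, 18, and 6 control reads and 51, 17, and 17 after knockdown, a change of 2.26 (SE 0.33, adjusted p = 0.00698) that passed after rescaling (adjusted p = 0.0334). Pla2g5, a secreted phospholipase, had 119, 235, and 91 control reads and 259, 209, and 180 after knockdown (log2 change 1.02, SE 0.11, adjusted p = 0.0012), and the groups did not overlap on the log2 scale. Grin1, an NMDA receptor subunit, went from 0.54, 1.08, and 0.78 to 2.29, 2.09, and 2.05 (change 1.34, SE 0.17, adjusted p = 0.00281). Cux2, a cortical homeobox factor, went from 1.26, 1.11, and 0.60 to 2.33, 2.35, and 2.20 (change 1.30, SE 0.19, adjusted p = 0.00627). Neil2, a DNA repair glycosylase, was raised by 0.99 (SE 0.15, adjusted p = 0.00782). Heatr8, Prr22, Pla2g5, Grin1, Cux2, and Neil2 passed in each of the 18 alternative fits. Of the other genes among the 15 largest increases outside the lists, Fbxl8 lost its call with any of 8 libraries left out, Slc11a1 with 6, Iqcg with 3, Cntd1, Myl6b, and Rpl23a with 2, and Ldhc and Ndufa4l2 with 1, with the highest adjusted p from 0.0507 (Ndufa4l2, without Dppa2 siRNA library 3C) to 0.155 (Fbxl8, without the same library). Dlx4, a homeobox gene of the trophoblast list, had 2, 11, and 3 control reads and 20, 12, and 22 after knockdown (change 3.05, SE 0.48, adjusted p = 0.00915, and 2.07 with adjusted p = 0.0314 after rescaling; adjusted p = 0.052 without Dppa2 siRNA library 3C).

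Few strongly expressed genes responded. Of genes past the threshold with a mean log2 value of 6 or more in either group, a scale not corrected for transcript length, Dppa2 had the largest decrease. Fbxo15, an F-box protein used as a marker of ESCs, went from 7.47, 7.63, and 7.75 to 6.77, 6.55, and 6.79 (change -0.91, SE 0.11, adjusted p = 0.0017). Whsc2, now called Nelfa, a subunit of the complex that pauses RNA polymerase II, went from 6.74, 6.75, and 6.57 to 5.95, 6.17, and 6.06 (change -0.63, SE 0.09, adjusted p = 0.00782), and Cwc22, a splicing factor, from 6.31, 6.26, and 6.39 to 5.69, 5.61, and 5.83 (change -0.61, SE 0.10, adjusted p = 0.00989, and 0.0517 without Dppa2 siRNA library 3A). The largest increase was that of the ribosomal protein gene Rpl23a, from 7.49, 8.29, and 8.03 to 9.08, 8.86, and 9.51 (change 1.21, SE 0.22, adjusted p = 0.0208), but 74.1% of the stretches of its transcript occur in another gene, and the call ended without Dppa2 siRNA library 3A or 3C (adjusted p = 0.0833 without 3C). Ucp2, a mitochondrial carrier, was raised by 0.78 (SE 0.15, adjusted p = 0.0242), a call lost with any of 5 libraries left out (adjusted p = 0.106 without Dppa2 siRNA library 3A).

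The lowered genes were not spread evenly over the genome. Chromosomes 12 and 13 had the highest shares, with 22 of 507 tested genes lowered (4.34%) and 18 of 540 (3.33%), and chromosome 16, which carries Dppa2, the lowest of the autosomes, with 3 of 425 (0.71%). The X chromosome had 12 of 492 lowered (2.44%) and 2 raised. No tested gene of the Y chromosome (6) or the mitochondrial genome (12) passed, and the 12 mitochondrial genes had a median change of 0.30. The share of raised genes was highest on chromosome 10, where 14 of 699 were raised, and lowest on the X chromosome, among those with any, at 0.41%.

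Many lowered genes lay beside each other. With genes counted as neighbours when their starts were within 500 kb of the next lowered gene, 12 runs of at least 3 lowered genes held 52 genes, and 43 of the 117 genes lowered by 3 or more lay in one. Raised genes formed only 2 runs with 7 genes. The run with the most lowered genes, from 87514316 to 88321481 on chromosome 12 (GRCm38), held 10, from Gm8300 to CT485612.1. Of 22 genes measured in its span 10 were tested, and all 10 were lowered, by -7.93 to -4.65. The Tcstv cluster from 119893467 to 120318076 on chromosome 13 had 15 genes measured, 8 tested, and 7 lowered. Untested genes did not reach the level needed for a test, and a gene high only with control siRNA could reach it. All 5 tested genes of the Zscan4 cluster on chromosome 7 (10900740 to 11402741) and all 3 of the Usp17-like cluster on the same chromosome (104768160 to 104862667) were lowered. Copies within such clusters share sequence, with a median of 84.2% of stretches found in another gene on chromosome 12, so the genes of a run are not independent of each other.

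In the Prame-like cluster from 143551700 to 144364419 on chromosome 4, 21 genes were measured, 7 tested, and 5 lowered. Pramef17 (change 0.66, SE 0.67, adjusted p = 0.786) and Gm13128 (change 1.63, SE 0.81, adjusted p = 0.389) were tested and did not pass. A further 3 tight clusters, on chromosomes 1, 3, and 10, were lowered in all of their 3 tested genes each. Their spans held 6, 10, and 9 measured genes, and the Tdpoz genes are those on chromosome 3. On chromosome 4 a further run, from 101834969 to 101943183, had 3 of 4 tested genes lowered, and B020004J07Rik and Gm12794 in it are both on the Prame-like list. On chromosome 13, from 112598333 to 113379711, Ddx4 lay with Ccno and BC067074, and 3 of 8 tested genes were lowered. Ccno, cyclin O, went from 3.51, 3.32, and 3.86 to 1.25, 1.19, and 1.39 (change -2.29, SE 0.16, adjusted p = 9.65e-05), close in size to its neighbour Ddx4, and no stretch of either transcript was shared with another gene. A run on chromosome 11 held Itgb4, Trim47, and Evpl, 3 of 12 tested genes (without 1 library adjusted p reached 0.117 for Trim47, lost with any of 8 libraries left out, and 0.0578 for Evpl, without Dppa2 siRNA library 3A), with Itgb4, an integrin of epithelial attachment, at -1.04 (SE 0.13, adjusted p = 0.00306). The widest run, on chromosome 7 from Lat to Ctf2, held 4 lowered genes among 71 tested.

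**Figure D5:**
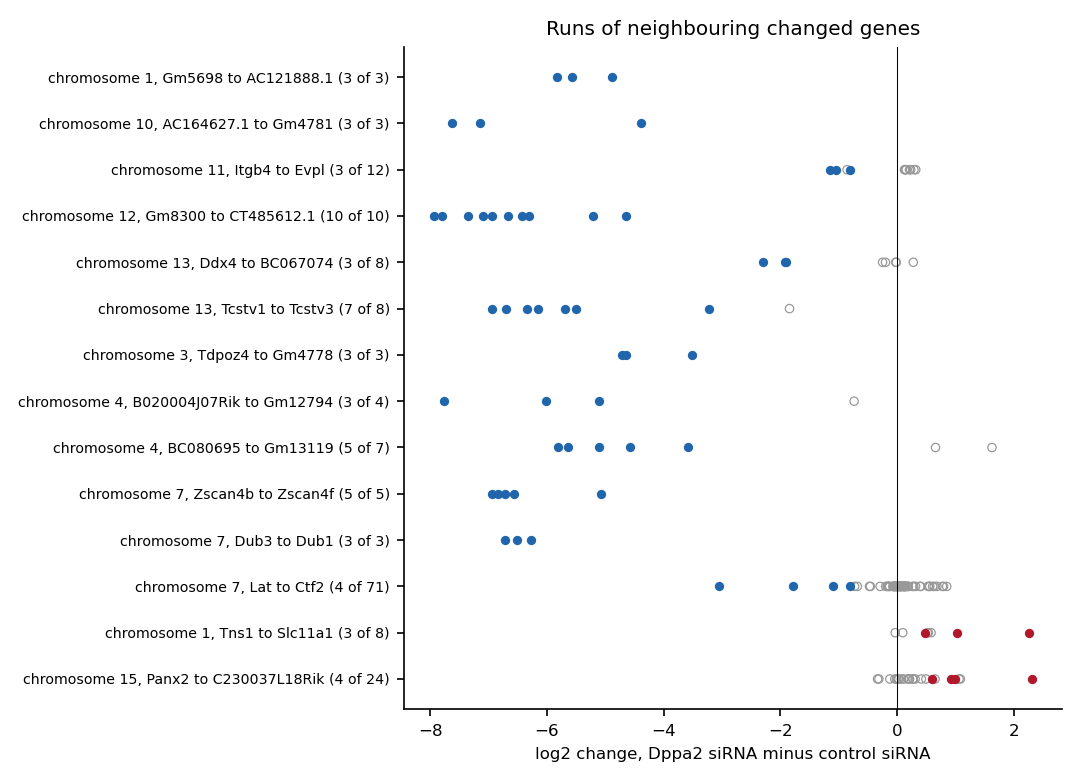
Log2 change of each tested gene in the 14 runs of neighbouring genes past the threshold (filled, blue lowered and red raised; open, tested genes of the same span that did not pass), one row per run with its first and last gene and the number past the threshold of those tested. The runs of ZGA families hold lowered genes with changes from -7.93 to -3.22 and few open circles, while the runs on chromosomes 11 and 15 and from Lat to Ctf2 are mostly open circles.

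By annotated type, protein-coding genes made up most calls, with 306 lowered and 146 raised of 13658 tested. Of 173 antisense genes 11 were raised and 4 lowered, and of 127 lincRNAs 6 were raised and 3 lowered, where 1.16% of all tested genes were raised and 2.27% lowered. After the rescaling the direction turned, with 2 antisense genes raised and 4 lowered and 1 lincRNA raised and 3 lowered. Of 251 processed pseudogenes 5 were lowered and none raised.

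A direct comparison of Dppa2 siRNA with Dppa4 siRNA in the same fit called 3 of 14601 genes (0.0205%), of which 1 was no target of either siRNA. This gene, 4930486L24Rik on chromosome 13, had 33, 87, and 41 reads with control siRNA and 1, 1, and 0 with Dppa2 siRNA, or 1.68% (exact 95% interval 0.202% to 6.18%). Its log2 values with Dppa4 siRNA were -0.94, -0.83, and -0.83, between the other groups. No difference of the ZGA or germ line genes between the siRNAs passed the test, and 987 genes (6.76%) had an unadjusted p below 0.05. The paper reports by Western blot that Dppa4 siRNA also lowered Dppa2 protein, with its mRNA unchanged. Dppa2 siRNA lowered Dppa4 protein to a smaller degree. RNA values do not show these losses, and their part in this comparison was not tested.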

How the data were processed

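Expression was measured by polyA RNA-seq in 9 libraries of E14 ESCs, 3 each for control, Dppa2, and Dppa4 siRNA. Per the submitters' processing notes, reads were trimmed with Trim Galore 0.4.5 and aligned to GRCm38 with HISAT2 2.0.5, and the authors used SeqMonk to count reads per mRNA probe by strand and then to bring the libraries onto one common cumulative distribution. The deposited values are these log2 levels, not corrected for transcript length. The authors also used DESeq2 on raw counts, which were not used here.

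Groups came from the siRNA in the titles. All 9 libraries entered one limma 3.58.1 fit (R 4.3.3) with an intensity trend, over the 14601 of 25965 genes above a log2 value of -2 in at least 3 libraries, with Benjamini-Hochberg adjustment at 0.05. All limma p-values are 2-sided. A high-confidence gene also passed an intensity difference filter, a p below 0.05 against the 1% of genes nearest in expression. On data simulated for this comparison over 14601 genes, limma found 92%, 62%, 58%, and 90% of log2 changes of -2, -1, 1, and 2, and called 4 unchanged genes. Neither the weakest nor the strongest genes were changed in that simulation, so the rates do not cover them.

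Reads per gene were inferred from the steps between low values, each step taken as a single read up to 300 reads. That range covered 63.5% to 71.8% of genes per library, among them the genes without reads. Above it, reads were estimated from the linear value. Depth is therefore an estimate. For genes with no reads, 3 reads in each library set the bound on the fold, and for genes with 1 to 3 reads an exact 95% interval was used. PCR duplicates were not resolved. Shared sequence was measured as the share of 50-base stretches, taken every 5 bases, that occur in another annotated gene. Of the genes in the table, 22607 matched the annotation by name and place, 2718 by place with an overlap of at least 80%, and 640 did not match. Summaries used Python 3.11.15 with numpy 2.4.6, pandas 2.3.3, and scipy 1.17.1, and plots matplotlib 3.10.9.

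The 39 lists, of 1004 members, and the rules were chosen with earlier results of these data known. Genes named were Dppa2 and Dppa4, up to 4 members per list and direction passing limma with the largest changes (where fewer than 2 passed, up to 3 members with the highest control mean), the 15 largest high-confidence decreases and increases outside the lists among named genes without overlap between groups, the first, last, and 2 largest genes of each run, and the 8 largest decreases and increases among genes at a log2 value of 6 or more. A further 24 genes, among them Pou5f1, Nanog, Arg2, Lmx1a, Abcb5, Pramel6, Pramel7, Tdrd1, Trim47, 4930486L24Rik, and the other members given as not passing, were chosen after their values were seen, as was Ddit4l for its promoter. The text gives fewer genes than the rule names, and a result that it would give is not reported here. Alternatives were other filters, the 6 libraries alone, a replicate block, each library left out, other run distances, and, added after the data were seen, low values rescaled to reads.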

Additional observations from a re-analysis of the deposited data

Results flagged for a closer look

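The effects of the 2 siRNAs differed, by the direct contrast in the limma fit, for 3 genes. Dppa2 siRNA minus Dppa4 siRNA gave -3.43 for Dppa2 (SE 0.143, adjusted p = 2.43e-05) and 0.99 for Dppa4 (SE 0.078, adjusted p = 0.00351), the targets of the siRNAs. The third was 4930486L24Rik, at -3.26 (SE 0.308, adjusted p = 0.0106), which was lower with Dppa2 siRNA in 3 of 3 libraries. Groups of 3 libraries are too small to test for a single library far from the others.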

How the results depend on the processing

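Against 332 lowered and 170 raised genes, and 224 and 55 of high confidence, using no filter on low values gave 895 and 8245, and 340 and 117; genes without reads enter this fit and differ only by the lowest value of each library. Asking for a log2 value above 0 gave 106 raised and 137 high-confidence lowered genes. The 6 libraries alone gave 208 and 22, with 12 high-confidence raised genes, and rescaling low values gave 94 raised. Adjusting the intensity filter's p left 82 and 11 high-confidence genes. With 1 library left out the counts ran from 207 to 303 lowered and 25 to 191 raised, and from 171 to 203 and 13 to 45 of high confidence. The counts were lowest without Dppa2 siRNA library 3C for lowered (207) and raised (25) genes. Deviations of libraries with the same letter correlated from -0.585 to 0.367, and those of libraries with different letters from -0.658 to 0.692. With 3 libraries a group, these deviations cannot tell whether the letters pair libraries. The replicate block gave 205 lowered and 33 raised genes, with 20 high-confidence raised. Runs numbered 6 lowered and 1 raised at 100 kb and 5 raised at 1000 kb, against 12 and 2. Of 126 genes named by the rule and past the threshold, 77 passed under all 18 other fits; of 2247 values, 1933 stayed past it, 314 did not, and 0 reversed. Pramef17 and Pramef8, which did not pass, ran from -0.134 to 1.172 and from -0.054 to 0.14 with 1 library left out. The cause of these differences was not tested. Weak genes rest on few reads, and changes below the counting error could not be detected at this depth.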
